A study of Homo sapiens with 28 samples.

Results

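Chromatin regulators are the proteins that move nucleosomes, add or remove acetyl and methyl groups on histones and DNA, or read those marks. The group described here holds the transcripts whose names begin with SMARC, CHD and a digit, KMT, KDM, SETD, HDAC, BRD and a digit, ARID, KAT and a digit, DNMT, EP300, CREBBP, EZH, SUZ12 or ASXL. The rule uses names and no measured value, though it was written with earlier results of these data known. Of 2568 transcripts with a degradation rate constant in the authors' deposited table, 53 were members and 2515 were not. The prefixes EZH and SUZ12, which name subunits of the Polycomb methyltransferase, matched 0 transcripts.

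The level of an mRNA is set by how fast it is made and how fast it is broken down. The degradation rate constant is the share of an mRNA pool lost per unit of time, so a high constant belongs to a short-lived mRNA. As background, mRNAs for transcription factors and other regulatory proteins are known to turn over faster than mRNAs for metabolic enzymes and structural proteins. Many chromatin regulators work in shared complexes, such as the nucleosome remodeller SWI/SNF (SMARC and ARID1 subunits) and the deacetylase and remodeller NuRD (HDAC1, HDAC2, CHD3 and CHD4).

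The constants came from nucleotide-recoding RNA sequencing in HEK293T, an established human embryonic kidney line labelled as wild type. Cells were given 4-thiouridine (s4U), a uridine analogue built into new RNA, at 100 µM for 2 h, or none. A chemical step then made s4U read as C, so that new RNA carried T-to-C mismatches. The study compared common laboratory and data handling, labelled drop-out (DO), with handling meant to limit the loss of s4U-containing RNA and reads, labelled improved (IH).

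The label SLAM stands for conversion by alkylation with iodoacetamide, TUC for oxidation by osmium tetroxide (OsO4) in the presence of ammonia (NH3), and TimeLapse for sodium periodate (NaIO4) as oxidant with the amine trifluoroethylamine (TFEA), at pH 5.2. These 3 chemistries were each run under both handlings. Each chemistry and handling had 2 labelled libraries and 1 unlabelled library, 18 in all. Nothing in the labels says whether replicates came from separate cultures, or whether the chemistries used aliquots of the same RNA. What differed between the handlings is given only in these general terms.

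With the conversion-aware aligner, the libraries held 1935777 to 9962345 reads. Between 16.7% and 25% of reads carried a T-to-C mismatch in labelled DO libraries, and between 40.0% and 58.2% in labelled IH libraries. In the unlabelled libraries the range was 3.28% to 5.17% under DO and 2.41% to 3.07% under IH. Among exonic reads of genes the labelled range was 10.4% to 17.4% under DO and 24.7% to 33.2% under IH, and the unlabelled range was 2.56% to 3.28% and 2.71% to 3.57%. The labelled share moved with handling on both counts, and its part in the results for chromatin regulators was not tested. Of 7 transcripts listed as typical of HEK293T, 4 had a constant: VIM and NEFM in 3 chemistries, CDH2 in 2 and KRT18 in 1. Of 4 listed for blood, fibroblast and liver cells (PTPRC, CD3E, COL1A1 and ALB), 0 had a constant. The table lists only transcripts with an estimate, so KRT8, PAX2 and LHX1 have no level here.

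Every rate constant, log2 fold change and adjusted p given below is a value of the authors' deposited table. It holds 1 estimate per transcript, chemistry and handling, with no replicate values and no standard errors. The time unit of the constants is not stated, so no half-lives are given. Values for the chemistries are always given in the order SLAM, TUC, TimeLapse. Where 1 value stands for a transcript, it is the median over the chemistries that measured it. Over all transcripts the median log2 fold change, IH over DO, was 1.14, 1.19 and 1.18. A rise of about that size in a member was thus no more than that of a typical transcript.

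Members made up 43 of the 1600 transcripts in the table for SLAM, 46 of 2262 for TUC and 51 of 2209 for TimeLapse. Of the 53 chromatin regulators, 39 had a constant in all 3 chemistries, 9 in 2 and 5 in 1. BRD1, BRD8 and CHD1L were measured with TimeLapse alone, KDM4B with TUC alone and SETD2 with SLAM alone.

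mRNAs of chromatin regulators had higher degradation constants than other mRNAs in the authors' deposited table, in each chemistry and under both handlings. Under IH their median constants were 0.162, 0.158 and 0.171, against 0.0826, 0.0992 and 0.101 for the other transcripts. The ratios of these medians were 1.96, 1.60 and 1.69. Under DO the medians were 0.0718, 0.0789 and 0.0758 against 0.0350, 0.0406 and 0.0426, with ratios of 2.05, 1.94 and 1.78. These are descriptions of a list of genes, which are not replicates. With 3 chemistries as the units, an exact two-sided sign-flip test cannot give a p below 0.25.

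Members were found more often than all transcripts at the fast end of the distribution and less often at the slow end. Under IH, 28 of the 53 members (52.8%) lay among the fastest 25% of all 2568 transcripts, above a constant of 0.165. The fastest 10.0% held 18 members (34.0%), and the fastest 5.02% held 8 (15.1%). At the slow end, 6 members (11.3%) lay below 0.0616, the value under which 25% of all transcripts lay. Under DO the same counts were 25, 12, 7 and 10 members.

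**Figure D1:**
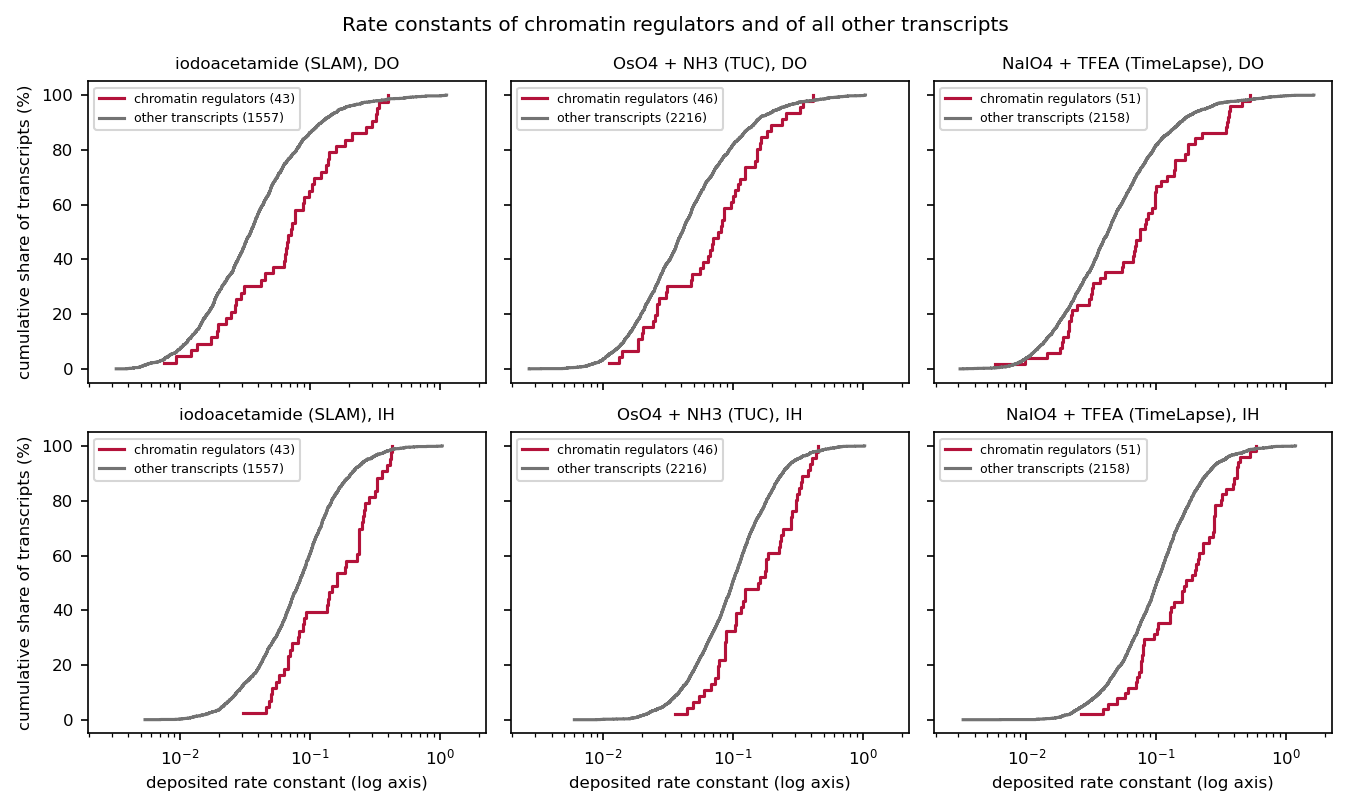
Cumulative share of transcripts (%, vertical) against the deposited degradation rate constant (log axis, time unit not stated), for chromatin regulators (red) and all other transcripts (grey), with DO above and IH below and 1 panel per chemistry. The red curve runs to the right of the grey one over most of its length, and the medians under IH were 0.162, 0.158 and 0.171 against 0.0826, 0.0992 and 0.101.

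Constants among the members spread widely. In the chemistry-wise ranges under IH, the lowest and highest members were 0.0303 and 0.429 with SLAM, 0.0360 and 0.450 with TUC, and 0.0265 and 0.591 with TimeLapse. Among members measured in all 3 chemistries, the authors' deposited table placed SETD1A, KDM2A, ARID1A, ASXL1, SETD1B and EP300 highest under IH. It placed CHD3, CHD4, KAT2A, SMARCC1, SMARCD3 and HDAC3 lowest. Neighbours in this order overlapped: SETD1A spanned 0.389 to 0.532 over the chemistries, KDM2A 0.417 to 0.450, ARID1A 0.423 to 0.435 and ASXL1 0.390 to 0.444. The same held at the slow end, where CHD3 spanned 0.0303 to 0.0441, CHD4 0.0360 to 0.0461 and KAT2A 0.0265 to 0.0552. The fast and slow ends themselves did not overlap in any chemistry, but they were chosen by these same values.

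**Figure D2:**
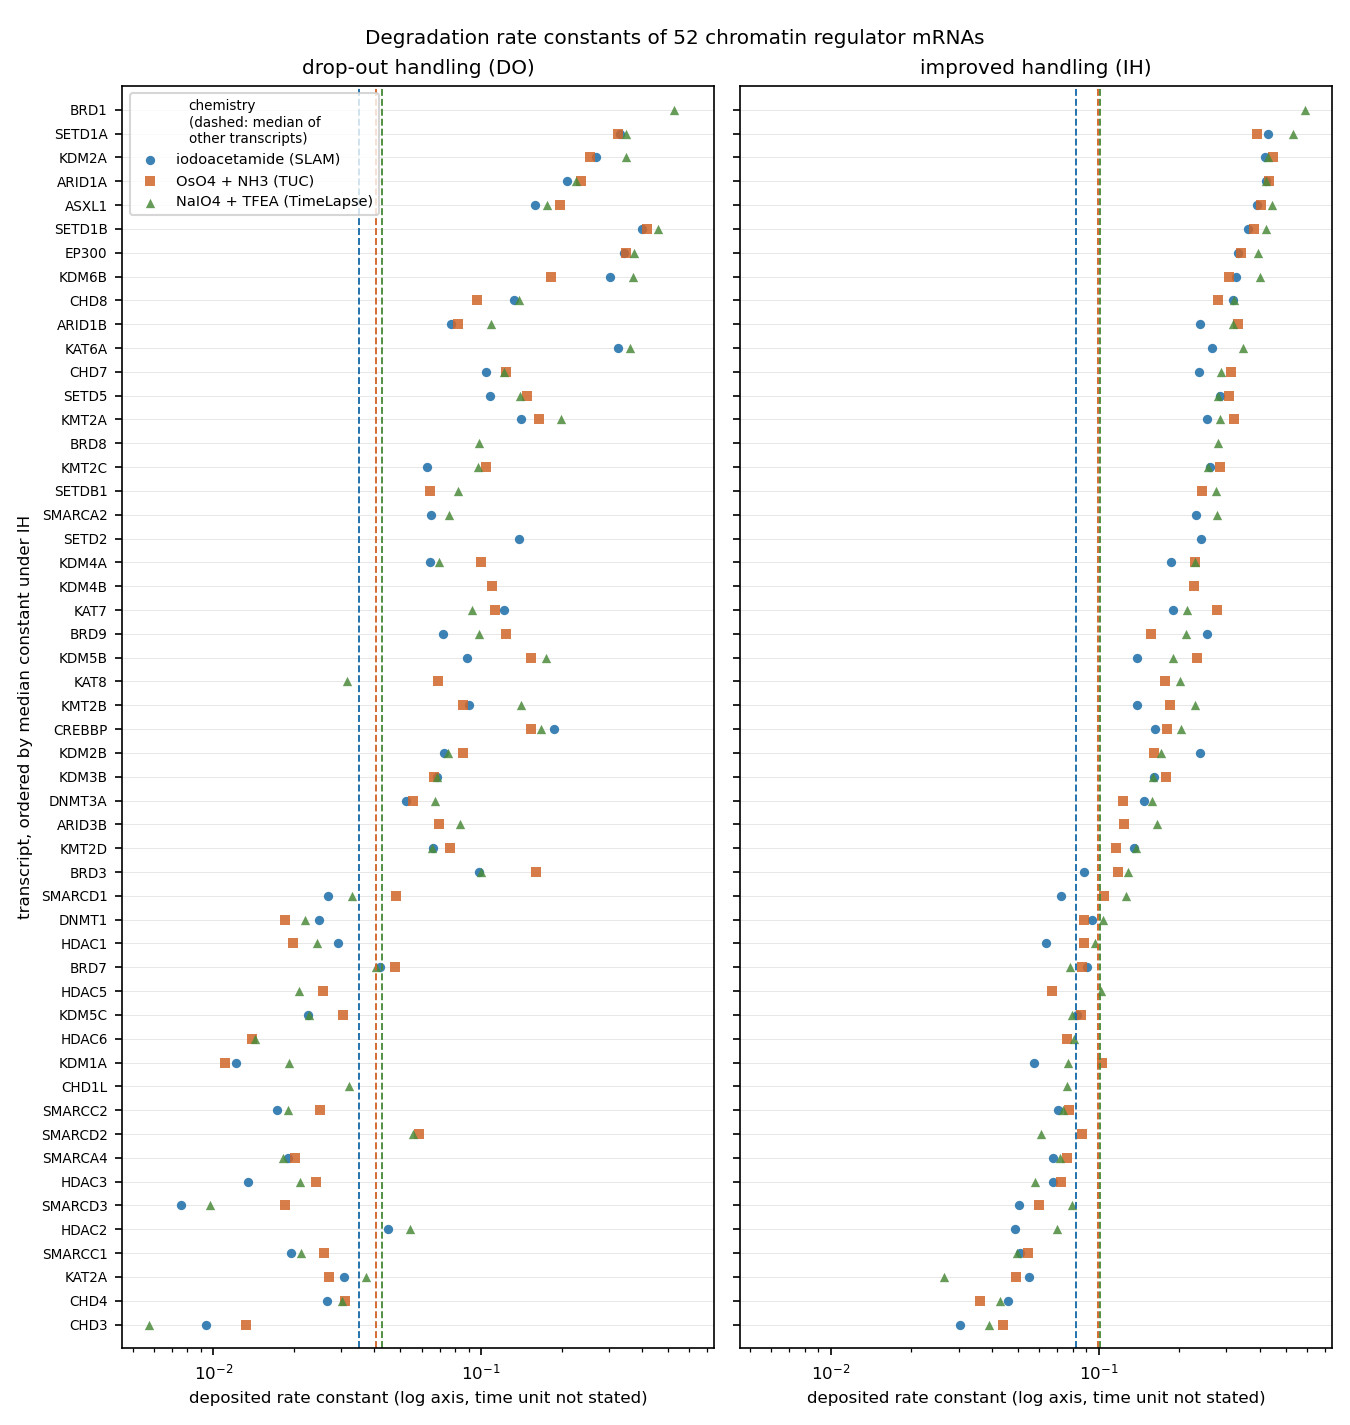
Deposited degradation rate constants (log axis, time unit not stated) of 52 chromatin regulator mRNAs under DO (left) and IH (right), 1 symbol per chemistry, ordered by the median constant under IH. Dashed lines are the medians of the other transcripts. Under IH the members form a continuous range from CHD3 to BRD1, with several SMARC, HDAC and CHD members in the lower part.

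The families defined by name differed in level. Under IH the 7 SMARC members had a median constant of 0.0739 and the 5 HDAC members 0.0787, both below the median of 0.101 over all transcripts. The 5 CHD members had a median of 0.0761, which was the value of CHD1L, measured with TimeLapse alone. Over the CHD members measured in all 3 chemistries the median was 0.164, above 0.101, so this family had no settled place. The DNMT pair stood at 0.121, the 6 BRD members at 0.165, CREBBP at 0.180, the 9 KDM members at 0.189 and the 4 KAT members at 0.201, or 0.131 for the KAT members measured in all 3 chemistries. The 4 KMT members stood at 0.223, the 5 SETD members at 0.283, the 3 ARID members at 0.317, EP300 at 0.340 and ASXL1 at 0.406. In the authors' deposited table the SMARC and HDAC families thus had medians below that of all transcripts, and the KMT, SETD and KDM families above it. Family medians rest on few genes, and their differences were not tested.

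**Figure D3:**
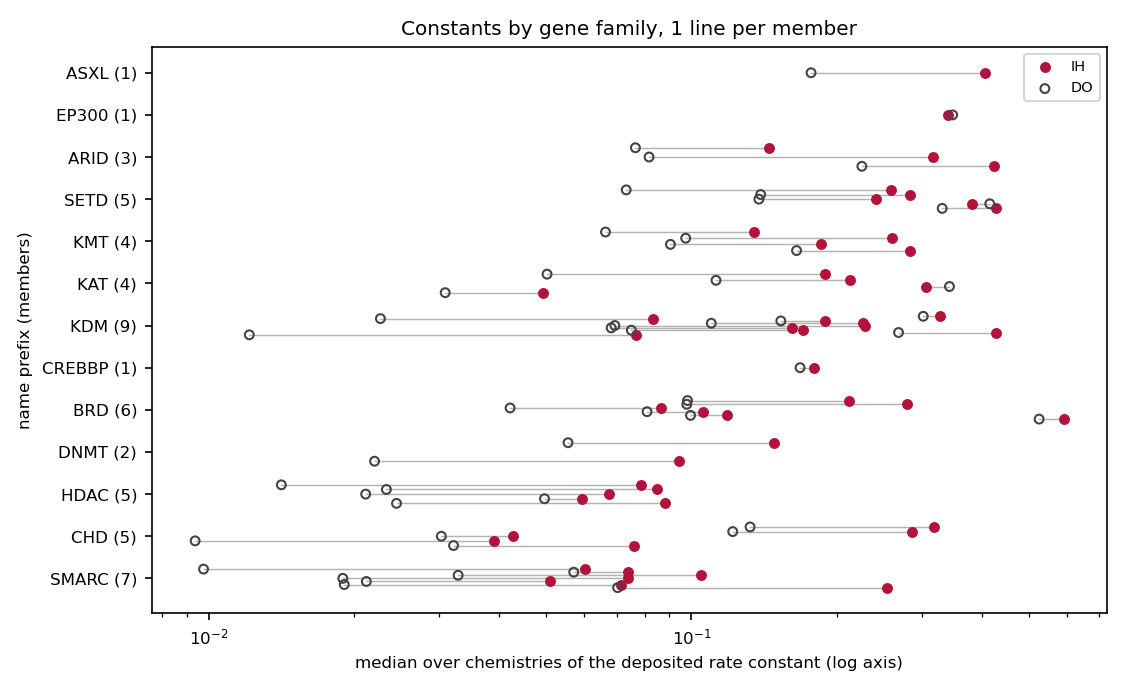
Median over chemistries of the deposited degradation rate constant (log axis) of each member, by name prefix, with the number of members in brackets. Filled red points are IH, open points are DO, and a line joins the values of 1 gene. The 5 HDAC members lie between 0.0592 and 0.0882 under IH, while the 5 SETD members lie between 0.241 and 0.429.

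Within SWI/SNF, 5 of 7 SMARC subunits had median constants below that of all transcripts under IH, SMARCD1 lay just above it at 0.105, and SMARCA2 and the ARID1 subunits were fast. SMARCA4 (BRG1), an ATPase of the complex encoded at chr19:10961030-11062273 (RefSeq annotation of GRCh38.p14), had deposited constants of 0.0191, 0.0202 and 0.0182 under DO and 0.0676, 0.0766 and 0.0717 under IH. The 3 IH values lay above all 3 DO values, but how many other transcripts did so was not counted. The log2 fold changes in the authors' deposited table were 1.84, 1.93 and 1.99 (adjusted p 7.84e-07, 8.72e-07 and 6.21e-10). The medians over all transcripts were 1.14, 1.19 and 1.18. Its paralog SMARCA2 (BRM), measured with SLAM and with TimeLapse, had constants of 0.0649 and 0.0758 under DO and of 0.231 and 0.277 under IH. SMARCA2 was 3.42 and 3.87 times SMARCA4 under IH and 3.40 and 4.17 times under DO. The order of the 2 ATPase mRNAs was thus the same under both handlings, with a gap of similar size.

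The scaffold subunits SMARCC1 and SMARCC2 lay close together under DO, and SMARCC2 had the higher deposited constants under IH. Under DO, SMARCC1 had constants of 0.0195, 0.0260 and 0.0212 and SMARCC2 of 0.0173, 0.0250 and 0.0190. Under IH, SMARCC1 stood at 0.0509, 0.0547 and 0.0496 and SMARCC2 at 0.0709, 0.0778 and 0.0740. SMARCC2 over SMARCC1 was therefore 0.884, 0.959 and 0.894 under DO and 1.39, 1.42 and 1.49 under IH. The gap under DO was small beside the spread over chemistries. There the highest DO constant was 1.33 times the lowest for SMARCC1 and 1.45 times for SMARCC2. Both rose with handling in every chemistry in the authors' deposited table, SMARCC2 by log2 fold changes of 2.10, 1.69 and 2.04 and SMARCC1 by 1.42, 1.11 and 1.27. The difference between the paralogs has no error in the table and was not tested.

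The accessory subunits SMARCD1, SMARCD2 and SMARCD3 had unlike handling values. SMARCD3 had deposited constants of 0.00755, 0.0185 and 0.00976 under DO and of 0.0506, 0.0601 and 0.0799 under IH. The authors' deposited table gave it the highest median log2 fold change of any member measured in all 3 chemistries: 2.90, 1.83 and 3.27 (adjusted p 0.0104, 0.0644 and 0.00505). SMARCD2, measured with TUC and with TimeLapse, had constants of 0.0585 and 0.0556 under DO and of 0.0869 and 0.0608 under IH. Its log2 fold changes were 0.58 and 0.12, with adjusted p values in the authors' deposited table of 0.286 and 0.852. SMARCD1 lay between them, with log2 fold changes of 1.46, 1.15 and 2.00.

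ARID1A and ARID1B are the large, mutually exclusive subunits of the canonical form of SWI/SNF. ARID1A (chr1:26696015-26782104) had deposited constants of 0.210, 0.237 and 0.226 under DO and of 0.424, 0.435 and 0.423 under IH. ARID1B had 0.0770, 0.0818 and 0.109 under DO and 0.240, 0.333 and 0.317 under IH. ARID1A was thus the faster of the pair in each chemistry, by 2.73, 2.90 and 2.06 times under DO and by 1.77, 1.31 and 1.33 times under IH. Both mRNAs rose with handling in every chemistry in the authors' deposited table. ARID1B rose by log2 fold changes of 1.68, 2.08 and 1.58, and ARID1A by 1.02, 0.89 and 0.92. Those of ARID1A lay below the median over all transcripts in each chemistry, and those of ARID1B above it. The third family member, ARID3B, a DNA-binding protein outside SWI/SNF, had lower constants of 0.125 and 0.165 under IH.

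CHD proteins are ATPases that remodel chromatin, and their mRNAs fell at both ends of the range. CHD3 and CHD4, the remodelling subunits of NuRD, were among the slowest members, while CHD7 and CHD8 were fast. CHD8 had deposited constants of 0.318, 0.279 and 0.321 under IH, and CHD7 of 0.238, 0.311 and 0.286. CHD4 had 0.0267, 0.0311 and 0.0304 under DO and 0.0461, 0.0360 and 0.0428 under IH. CHD3 (chr17:7884796-7912755) had 0.00938, 0.0133 and 0.00577 under DO and 0.0303, 0.0441 and 0.0390 under IH. CHD4 over CHD3 was 2.85, 2.34 and 5.26 under DO and 1.52, 0.816 and 1.10 under IH, so the gap seen under DO was smaller under IH and turned with TUC. The gap under DO involved very low CHD3 values: 6.23%, 8.21% and 0.417% of other transcripts had lower DO constants. The highest DO constant of CHD3 was 2.31 times its lowest. CHD3 rose in all 3 chemistries in the authors' deposited table (log2 fold changes 1.72, 1.76 and 2.85), and CHD4 passed the threshold with SLAM (log2 fold changes 0.80, 0.23 and 0.51, adjusted p 0.0389, 0.618 and 0.118). Whether CHD3 and CHD4 differed in this change was not tested.

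The histone methyltransferases of the KMT2 and SETD1 families, which place the methyl mark of active promoters and enhancers, were mostly fast. SETD1A (chr16:30957754-30984664) had deposited constants of 0.331, 0.326 and 0.347 under DO and of 0.429, 0.389 and 0.532 under IH. SETD1B had 0.399, 0.415 and 0.458 under DO and 0.363, 0.382 and 0.421 under IH. SETD1B was 1 of 2 members, with KAT6A, whose log2 fold change lay below 0 in every chemistry that measured it in the authors' deposited table, at -0.13, -0.11 and -0.11 (adjusted p 0.715, 0.773 and 0.724). SETD1A had log2 fold changes of 0.38, 0.26 and 0.62, above 0 in each chemistry, and passed the threshold with TimeLapse (adjusted p 0.218, 0.434 and 0.0130). The difference between chemistries was not tested.

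Of the KMT2 enzymes, KMT2A had deposited constants of 0.255, 0.320 and 0.283 under IH and KMT2D of 0.135, 0.116 and 0.138. KMT2A over KMT2D was 1.89, 2.76 and 2.05 under IH and 2.13, 2.15 and 3.02 under DO. KMT2C, the enhancer enzyme most like KMT2D, stood at 0.261, 0.284 and 0.257 under IH and rose in all 3 chemistries in the authors' deposited table, by 2.11, 1.49 and 1.43. KMT2B stood at 0.139, 0.186 and 0.230 under IH. SETD2, which methylates histone H3 over transcribed genes, had a constant of 0.241 under IH with SLAM. SETDB1, which places a repressive methyl mark, stood at 0.243 and 0.276 under IH and rose in both chemistries that measured it (log2 fold changes 1.99 and 1.80). ASXL1, a partner of the deubiquitinase BAP1, stood at 0.390, 0.406 and 0.444 under IH, and rose by 1.31, 1.07 and 1.34.

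Demethylases ranged from below to above the median of all transcripts under IH. KDM2A, which binds unmethylated CpG islands, had deposited constants of 0.269, 0.256 and 0.349 under DO and of 0.417, 0.450 and 0.429 under IH. KDM6B, a demethylase known for rapid induction, had 0.302, 0.182 and 0.368 under DO and 0.327, 0.308 and 0.400 under IH. Neither passed an adjusted p of 0.05 in any chemistry in the authors' deposited table. KDM1A (LSD1, chr1:23019468-23083689), the amine oxidase of the CoREST complex, had the lowest median of the KDM members under IH. Its constants were 0.0121, 0.0111 and 0.0192 under DO and 0.0573, 0.103 and 0.0769 under IH. With TUC, 52.5% of other transcripts had lower constants than KDM1A under IH. It rose in every chemistry in that table, by log2 fold changes of 2.31, 3.36 and 2.07. KDM5C, encoded on the X chromosome, also rose from a slow level, by 1.90, 1.52 and 1.84, while its paralog KDM5B did not pass the threshold (0.68, 0.63 and 0.14).

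Of the acetyltransferases, EP300 and CREBBP are paralogous coactivators that acetylate histones at enhancers. EP300 (chr22:41092592-41180077) had deposited constants of 0.343, 0.348 and 0.372 under DO and of 0.332, 0.340 and 0.394 under IH. CREBBP (chr16:3725054-3880713) had 0.187, 0.153 and 0.168 under DO and 0.162, 0.180 and 0.203 under IH. EP300 was thus the faster of the pair by 1.84, 2.27 and 2.22 times under DO and by 2.05, 1.89 and 1.94 times under IH. The DO and IH values of each gene overlapped. The log2 fold changes in the authors' deposited table were -0.04, -0.02 and 0.09 for EP300 (adjusted p 0.903, 0.947 and 0.742) and -0.19, 0.25 and 0.29 for CREBBP (adjusted p 0.577, 0.540 and 0.344).

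The KAT enzymes spread over most of the range. KAT6A (MOZ), measured in 2 chemistries, had deposited constants of 0.326 and 0.360 under DO and of 0.266 and 0.347 under IH. KAT2A (GCN5), the acetyltransferase of SAGA, was among the slowest members, at 0.0309, 0.0270 and 0.0371 under DO and 0.0552, 0.0493 and 0.0265 under IH. KAT2A had the widest spread between chemistries under IH of the 39 members measured in all 3, a factor of 2.08 from the lowest to the highest. Neither gene passed an adjusted p of 0.05 in the authors' deposited table. KAT8 (MOF) rose in both chemistries that measured it, by 1.43 and 2.79, the former at an adjusted p of 0.04996, just under the threshold of 0.05. KAT7 (HBO1) was higher under IH in all 3 chemistries, with log2 fold changes in that table of 0.65, 1.33 and 1.23 (adjusted p 0.178, 0.00613 and 0.00349).

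Bromodomain proteins read acetylated lysines. BRD3, of the BET family, had deposited constants of 0.0979, 0.160 and 0.0996 under DO and of 0.0879, 0.118 and 0.128 under IH, so that the DO and IH ranges overlapped. BRD3 did not pass the threshold in any chemistry in the authors' deposited table (log2 fold changes -0.14, -0.42 and 0.39). BRD1, a scaffold of acetyltransferase complexes, had the highest constant of any member, 0.591 under IH, but in 1 chemistry. BRD7 had the lowest median of the BRD members, with 0.0906, 0.0866 and 0.0780 under IH.

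Histone deacetylase mRNAs had medians over chemistries below the median of all transcripts under IH, from 0.0592 for HDAC2 to 0.0882 for HDAC1. Between 28.8% and 43.3% of other transcripts had lower constants, as the median over chemistries of each gene. With TimeLapse alone, 50.6% of other transcripts had lower constants than HDAC5 under IH. HDAC1 and HDAC2 are interchangeable catalytic subunits of NuRD and SIN3. HDAC1 had deposited constants of 0.0292, 0.0198 and 0.0245 under DO and of 0.0637, 0.0882 and 0.0973 under IH. HDAC2, measured with SLAM and with TimeLapse, had 0.0451 and 0.0542 under DO and 0.0487 and 0.0698 under IH. In those 2 chemistries HDAC2 was 1.54 and 2.21 times HDAC1 under DO, while HDAC1 was 1.31 and 1.39 times HDAC2 under IH. The order of the pair thus turned with handling in these values, which have no errors, and the turn was not tested. Over chemistries under IH, the highest constant was 1.53 times the lowest for HDAC1 and 1.43 times for HDAC2. The log2 fold changes in the authors' deposited table were 1.19, 2.26 and 2.08 for HDAC1 (adjusted p 0.0862, 0.00400 and 0.00271) and 0.20 and 0.46 for HDAC2 (adjusted p 0.782 and 0.493). HDAC3, the deacetylase of the NCoR and SMRT corepressors, rose in all 3 chemistries, by 2.39, 1.66 and 1.51. HDAC6, a mostly cytoplasmic tubulin deacetylase, rose by 2.58 and 2.60 in both chemistries that measured it.

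The DNA methyltransferases were measured as the maintenance enzyme DNMT1 and the de novo enzyme DNMT3A. DNMT1 (chr19:10133346-10194953) had deposited constants of 0.0248, 0.0186 and 0.0221 under DO and of 0.0942, 0.0881 and 0.104 under IH. The IH values lay above all DO values, but how many other transcripts did so was not counted. The log2 fold changes in the authors' deposited table were 1.95, 2.28 and 2.27 (adjusted p 2.21e-06, 5.60e-06 and 2.74e-08), beside medians of 1.14, 1.19 and 1.18 over all transcripts. DNMT3A had 0.0522, 0.0555 and 0.0671 under DO and 0.148, 0.123 and 0.159 under IH, above DNMT1 in each case. Its constants were higher under IH in all 3 chemistries, with log2 fold changes in that table of 1.56, 1.24 and 1.28 (adjusted p 0.0170, 0.119 and 0.0157).

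The handling comparison set the constants under IH beside those under DO. The part of lost labelled RNA and reads in the difference was not tested. With an adjusted p under 0.05, the authors' deposited table had higher constants under IH for 26 of 43 chromatin regulators with SLAM, beside 48.9% of all transcripts. The counts were 26 of 46 with TUC, beside 48.1%, and 35 of 51 with TimeLapse, beside 52.6%. As shares of members these were 60.5%, 56.5% and 68.6%. No member was lower under IH at that threshold in any of the 3 chemistries, beside 1.44%, 0.442% and 0.679% of all transcripts. At an adjusted p under 0.01 the counts higher under IH were 22, 18 and 27, beside 32.4%, 27% and 33.5% of all transcripts. The fold changes of members were close to those of other transcripts: their medians were 1.21, 1.12 and 1.23 on the log2 scale, against 1.14, 1.19 and 1.17. The median over all transcripts was itself well above 0, at 1.14, 1.19 and 1.18, so an unshifted member stood out only by lacking that change.

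Of the 39 members measured in all 3 chemistries, 18 (46.2%) were called higher in each, beside 36.2% of all 1471 such transcripts. Calls in 2 chemistries were listed for 9 (23.1%), beside 17.3%, and in 1 for 3 (7.69%), beside 16.9%. A further 9 (23.1%) were called in none, beside 29.6%. The 18 were ARID1A, ARID1B, ASXL1, CHD3, CHD7, CHD8, DNMT1, HDAC3, KDM1A, KDM3B, KDM4A, KDM5C, KMT2C, SETD5, SMARCA4, SMARCC1, SMARCC2 and SMARCD1. Log2 fold changes of at least 1.5 in every chemistry were listed for 9 of the 39 members in the authors' deposited table, beside 18.3% of the 1471 transcripts: ARID1B, CHD3, DNMT1, HDAC3, KDM1A, KDM5C, SMARCA4, SMARCC2 and SMARCD3. Among members measured in 2 or 3 chemistries (9 and 39), 12 were called in none, beside 33.6% of all 2032 such transcripts: BRD3, BRD7, CREBBP, EP300, HDAC2, KAT2A, KAT6A, KDM2A, KDM5B, KDM6B, SETD1B and SMARCD2. A missing call does not show that a constant was the same under both handlings.

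Calls by family are read against the 48.9%, 48.1% and 52.6% of all transcripts called higher. SMARC members were called higher in 6 of 6, 4 of 6 and 6 of 7 cases, and CHD members in 4 of 4, 3 of 4 and 3 of 5. The KMT family had 3 of 4 called in each chemistry. The KDM members had 5 of 8, 5 of 9 and 5 of 8. The BRD members had 1 of 4, 0 of 4 and 3 of 6, the SETD members 1 of 4, 2 of 4 and 3 of 4, and the KAT members 0 of 3, 2 of 3 and 2 of 4. The HDAC members had 1 of 3, 3 of 4 and 4 of 5, the ARID members 2 of 2, 2 of 3 and 3 of 3, and the DNMT members 2 of 2, 1 of 2 and 2 of 2. Several of these counts lay near the share of all transcripts, and none of these counts from the authors' deposited table was tested against another.

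**Figure D4:**
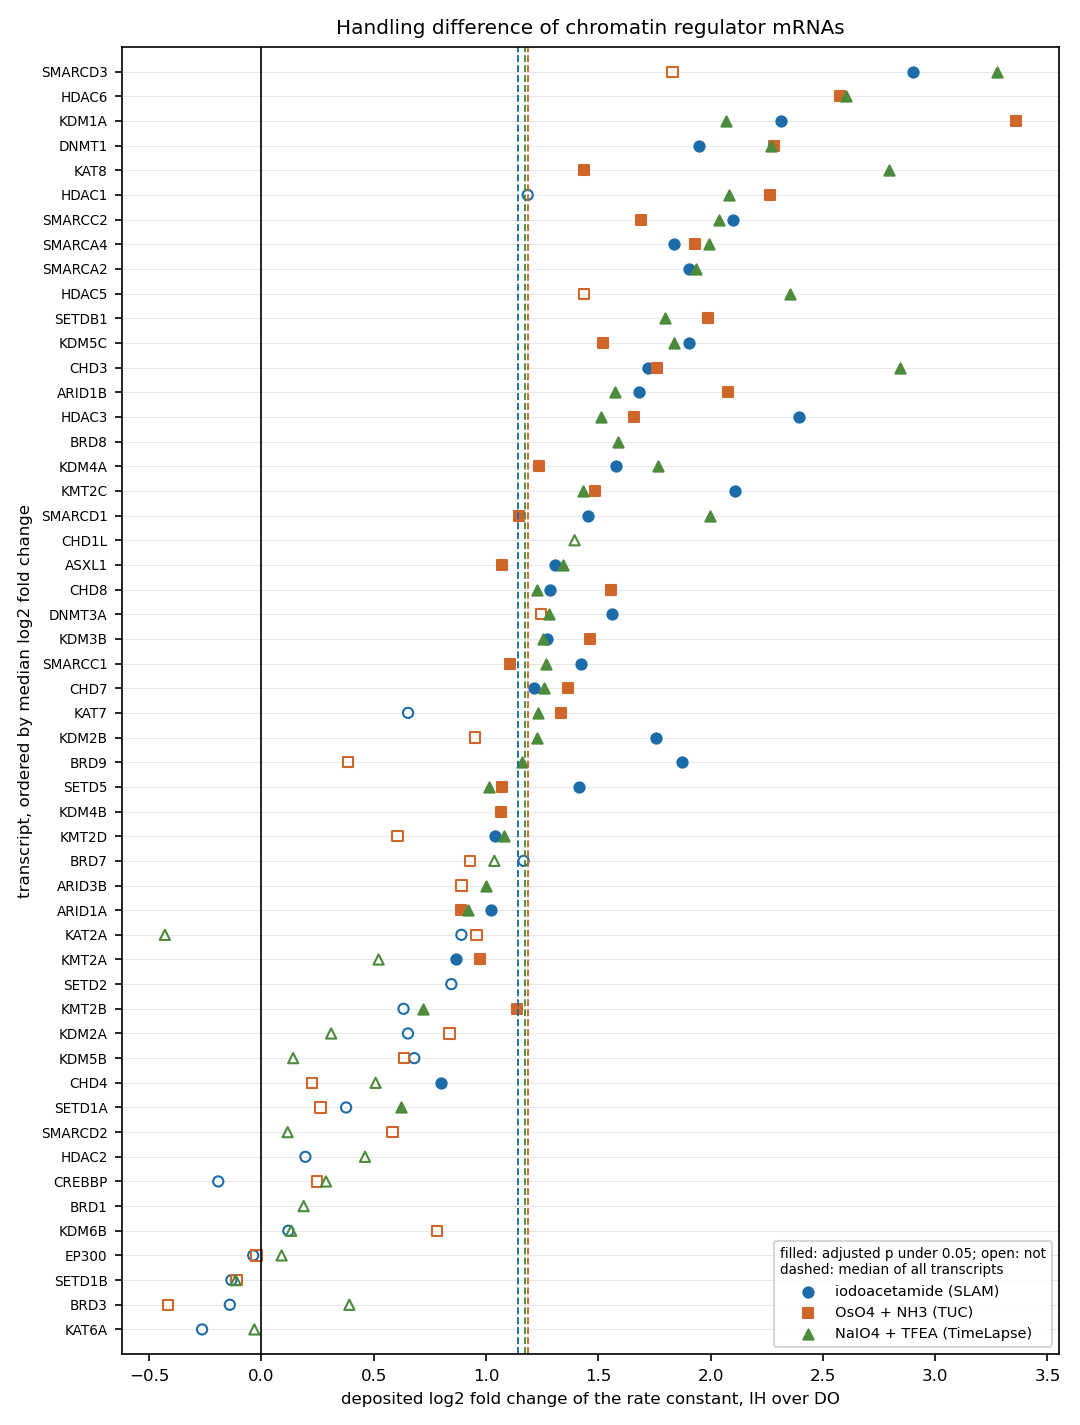
Deposited log2 fold change of the degradation rate constant, IH over DO (horizontal), of 52 chromatin regulator mRNAs, 1 symbol per chemistry, ordered by their median. Filled symbols have a deposited adjusted p under 0.05, open symbols do not, and dashed lines are the medians of all transcripts (1.14, 1.19 and 1.18). The symbols run from KAT6A, BRD3 and SETD1B, between -0.42 and 0.39, to SMARCD3, HDAC6 and KDM1A, between 1.83 and 3.36, and no filled symbol lies below 0.

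Members that were slow under DO had the larger median handling differences, with ranges that overlapped those of the faster members. Because the log2 fold change contains the DO constant of the same chemistry, members were split by the DO constant with TUC, at the median of 0.0376 over transcripts measured in all 3 chemistries. Their fold changes were then read in the other chemistries. The 12 members below that constant had median log2 fold changes of 1.87 with SLAM (range 0.80 to 2.90) and 2.02 with TimeLapse (-0.43 to 3.27). The 27 members above it had 1.04 (-0.19 to 2.11) and 1.04 (-0.11 to 2.00). The other transcripts showed the same order in the authors' deposited table, with 1.45 and 1.46 for the 724 slower ones and 0.86 and 0.88 for the 708 faster ones. The split does not free the comparison of shared error: the DO constants of members correlated between TUC and the other chemistries (Pearson's r 0.960 and 0.961), the chemistries may share RNA, and the part of such error was not tested. The split was chosen after values had been seen, and it is a description with no test.

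**Figure D5:**
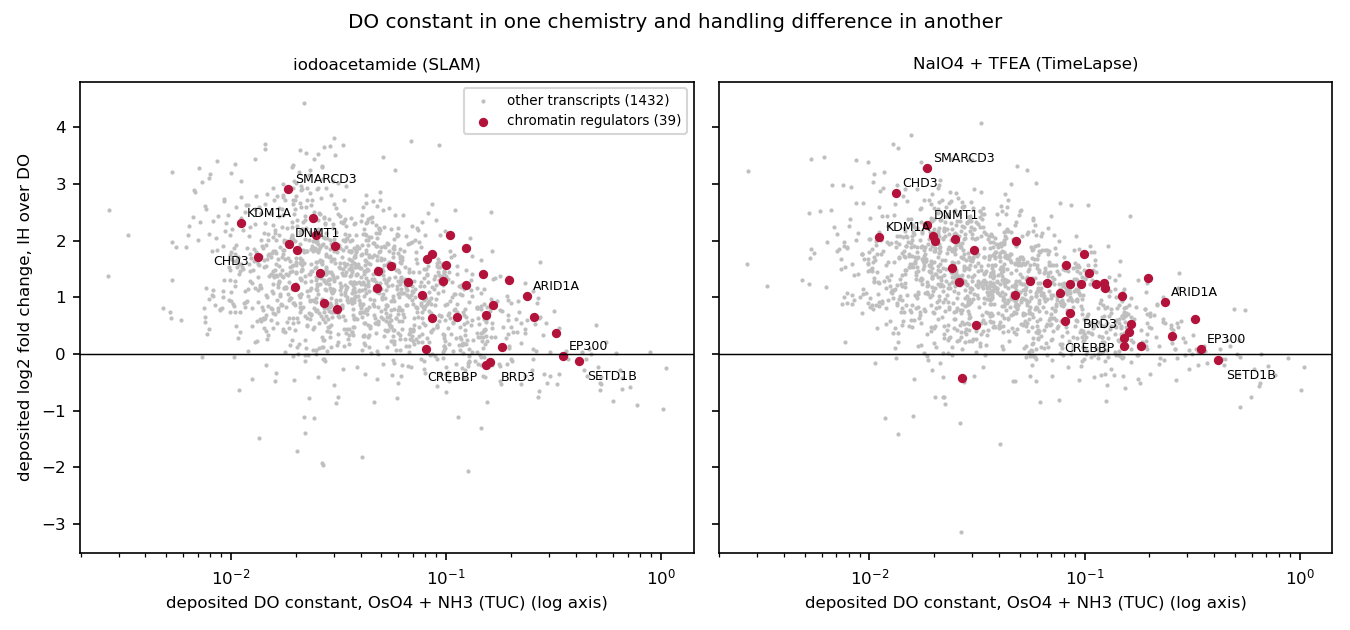
Deposited log2 fold change, IH over DO, with SLAM (left) and with TimeLapse (right) against the deposited DO constant with TUC (log axis), for the 39 chromatin regulators (red) and 1432 other transcripts (grey) measured in all 3 chemistries. Points fall from upper left (SMARCD3, KDM1A, CHD3 and DNMT1) to lower right (EP300 and SETD1B).

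The place of some members among other mRNAs differed between the handlings. The place of a member is given as the percent of other transcripts with a lower constant, as the median over chemistries. DNMT1 moved from 23.6% under DO to 51.4% under IH, HDAC6 from 10.1% to 36.9%, KDM1A from 11.5% to 36.0% and SMARCD3 from 3.60% to 27.7%. In the other direction, where a place can fall because the constants of other transcripts were higher under IH, HDAC2 moved from 61.0% to 28.8%, SMARCD2 from 63.4% to 33.8%, KAT2A from 44.3% to 17.7%, BRD3 from 85.7% to 60.5% and CHD4 from 38.2% to 13.4%. Of these, HDAC2, SMARCD2, KAT2A and BRD3 were called in no chemistry and CHD4 in 1 of 3, so their own constants were not shown to change. KAT8 moved from 70.9% to 78.9% with TUC and from 36.7% to 83.5% with TimeLapse, so the size of its shift rested on TimeLapse. SMARCD3 moved less with TUC, from 17.7% to 25.3%, and KAT2A less with SLAM, from 44.4% to 30.4%. The direction was the same in every chemistry that measured each of these members. These 10 members were chosen for the size of their shift, computed from the authors' deposited table.

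The 3 chemistries ordered the members alike. Across the 39 members measured in all 3, Pearson's r between log2 constants of 2 chemistries was 0.950 to 0.968 under IH and 0.960 to 0.980 under DO. For the 1432 other transcripts it was 0.927 to 0.944 and 0.911 to 0.927. For the log2 fold change it was 0.746 to 0.819 in members and 0.703 to 0.718 in others. The points share the cell line, the handling and the estimation method, and genes are not independent replicates, so these values from the authors' deposited table are descriptions. The highest constant of a member was a median of 1.26 times its lowest over the chemistries under IH (range 1.03 to 2.08) and 1.36 times under DO (1.02 to 2.45).

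Other chromatin genes outside the naming rule gave a background. Some are partners in the same complexes as members, and others are further chromatin enzymes or subunits of other complexes. Of 101 such genes listed, 45 had a constant. Their median constants under IH in the authors' deposited table were 0.111, 0.134 and 0.127, between those of the named chromatin regulators and those of all other transcripts. They were called higher under IH in 20 of 36, 28 of 43 and 23 of 42 cases and lower in none, beside the shares of all transcripts given above. The 8 measured partners of the Polycomb repressive complexes were the fastest of the lists that had more than 3 members measured, with median constants of 0.268, 0.282 and 0.325. Among them, the chromodomain readers CBX6 and CBX2 and the recruiting factor JARID2 had medians over chemistries of 0.543, 0.391 and 0.434, and the deubiquitinase BAP1 had 0.0794. At the slow end of all lists stood RUVBL2, an ATPase of INO80 and TIP60, at 0.0287, and the arginine methyltransferase PRMT5 at 0.0463.

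The genes of chromatin regulators were long. In RefSeq's annotation of GRCh38.p14, all 53 symbols were found and the genes spanned a median of 55.4 kb, against 25.2 kb for the 2379 of 2515 other transcripts that were found. Spans over 100 kb were found for 14 members (26.4%) and for 14.5% of the others. Spearman's rho between span and the constant under IH was 0.339 across the 53 members and 0.228 across the others, a description across genes. The 14 long members had a median constant of 0.234 in the authors' deposited table and the 39 shorter ones 0.145. Both fast and slow members were found at each length: members over 100 kb ranged from 0.0509 (SMARCC1) to 0.429 (KDM2A), and the 12 members of up to 30 kb from 0.0390 (CHD3) to 0.429 (SETD1A).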

How the data were processed

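Reads came from total RNA of HEK293T cells, extracted, treated with DNase and converted before stranded library preparation, per the labels. The submitters' processing notes name cutadapt, HISAT2, STAR, HISAT, Picard, HTSeq, DESeq2 and GRCh38, and versions are not given in the sources used here. The authors deposited a table of read counts by library, aligner, gene, intronic flag and number of T-to-C mismatches. It was used only for depth and for the share of converted reads (HISAT-3N alignment), because its gene identifiers could not be paired with symbols: the reference list held 0 Ensembl identifiers. The planned edgeR tests of member counts and converted shares were therefore not run, nor was protein length, for which no table was given.

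Members come from the bakR table: the authors deposited first-order degradation rate constants for each handling, their log2 fold change and an adjusted p-value, per the labels. How the p-values were adjusted is not stated. The deposited log2 fold change is IH over DO: it differed from the log2 of IH divided by DO by at most 0.352 over all 6071 table entries. For the 140 member entries it differed by at most 0.242, and its sign differed from that of the ratio in 0. The filter that decided which transcripts have an estimate is not stated, so transcripts without one were not analysed here. The 10 libraries of 5 other chemistries were not analysed here.

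Medians, shares and ratios were computed with Python 3.11.15, pandas 2.3.3, numpy 2.4.6 and scipy 1.17.1, and drawn with matplotlib 3.10.9; the scripts were tested on simulated data. A call is a deposited adjusted p under 0.05. Genes described singly are the 6 highest and 6 lowest members by constant under IH, the 4 highest and 4 lowest by log2 fold change, the ends or all of each family, and 10 pairs of paralogs or complex partners, of which 7 had values. KAT7, KAT8, KDM5C, KMT2B, KMT2C, SETDB1, HDAC6, CHD7, SMARCD1 and SMARCD2 lie outside that rule and were added after their values were seen. The members and lists were chosen with earlier results of these data known. Values of 1 member are not reported here and are not drawn in the plots by gene name, though it is counted in the group values.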

Additional observations from a re-analysis of the deposited data

Results flagged for a closer look

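Of the members, 4 had deposited log2 fold changes of both signs over the 3 chemistries, and the difference between chemistries was not tested for any of them. The highest minus the lowest value was 1.39 for KAT2A, which lay above 0 with SLAM (0.89) and with TUC (0.96) and below 0 with TimeLapse (-0.43). It was 0.809 for BRD3, below 0 in the first 2 chemistries and above 0 with TimeLapse. It was 0.480 for CREBBP, below 0 with SLAM alone. It was 0.126 for EP300, whose 3 values all lay within 0.1 of 0. None of these values had an adjusted p under 0.05 in the authors' deposited table.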

How the results depend on the processing

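The higher constants of members, with ratios over 1 in every chemistry and handling, kept their direction in all alternatives run: transcripts measured in all 3 chemistries, means of log2 values, and leaving out each chemistry. Ratios and differences were held to a spread of 1 SD over chemistries and counts of calls to a factor of 1.5: 30 values stayed within these limits and 6 moved. The DO ratio moved with means of log2 values, from 2.05 to 1.83, from 1.94 to 1.57 and from 1.78 to 1.58. With transcripts measured in all 3 chemistries it moved to 2.30 for TUC and to 2.26 for TimeLapse, with fewer transcripts. The difference in log2 fold change with SLAM, 0.07 between medians, was -0.015 between means; the cause was not tested. Members called higher numbered 22, 18 and 27 at an adjusted p under 0.01, beside 32.4%, 27% and 33.5% of all transcripts. With that restriction to all 3 chemistries, family medians moved for CHD (from 0.0761, below the median of 0.101 over all transcripts, to 0.164, above it), SETD (0.382), BRD (0.112), ARID (0.371) and KAT (0.131). No member had an antisense or pseudogene name, so the alternative without such members left none out. No paired analysis was possible because replicate numbers are not carried by the deposited constants, which are 1 estimate per handling, and the counts could not be paired with symbols. Pairing by chemistry was left as values, since a sign flip over 3 chemistries cannot give a p below 0.25. Because identifiers had no symbols, the edgeR, DESeq2, filter, aligner, mismatch, replicate block and leave-one-library-out alternatives were not run. Transcripts without a constant have no value here, and the part of depth in this was not tested.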

Other observations

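Among the 39 members measured in all 3 chemistries, SLAM gave the lowest of the 3 constants for 21 under IH (53.8%) and for 23 under DO (59.0%). Among the 1432 other transcripts the shares were 58.8% and 52.3%, so the low SLAM values were not limited to chromatin regulators. TUC gave the highest constant for 17 members under IH (43.6%, beside 42.0% of the others) and for 20 under DO (51.3%, beside 39.0%). TimeLapse did so for 17 under IH (43.6%, beside 42.2%) and for 14 under DO (35.9%, beside 42.2%).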
